A study of Macaca mulatta with 102 samples.

Results

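Beta-casein (CSN2) and kappa-casein (CSN3) transcripts were described in mammary tissue and milk of rhesus macaques. The members were fixed by identifier: ENSMMUT00000042085 and ENSMMUT00000006853 of CSN2 and ENSMMUT00000008430 of CSN3, which are 3 of the 42701 Ensembl transcripts with values. Caseins are the main phosphoproteins of milk and are made by the secretory epithelium of the lactating gland. They assemble with calcium phosphate into micelles, in which beta-casein is a calcium-sensitive core protein and kappa-casein coats and stabilises the surface. Casein genes lie in 1 cluster on the chromosome, and their transcription in the gland is known to be driven by prolactin through STAT5 together with glucocorticoids.

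In the rheMac2 coordinates of the file, both CSN2 transcripts and CSN3 lay on chromosome 5. ENSMMUT00000042085 spanned chr5:59676470-59680187, here called the shorter CSN2 transcript. ENSMMUT00000006853 spanned chr5:59676454-59681817 and contained the whole locus of the shorter one, extending 16 bases beyond its start and 1630 bases beyond its end. CSN3 spanned chr5:59423490-59435314, and 241139 bases lay between it and the longer CSN2 locus. Reads in the shared stretch belong to both CSN2 transcripts, so their division was an estimate by Cufflinks and their sum was used beside them. Exons and UTRs of these transcripts were not analysed here.

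RNA came from 6 multiparous lactating rhesus macaques (M1 to M6) that were nursing infants and had no experimental treatment. The mammary biopsies were single vacuum-assisted core biopsies, taken after milking under sedation with oxytocin, at day 30 post-partum in M3, M4 and M6 and at day 90 in M1, M2 and M5. Milk cells (the washed pellet of centrifuged milk) were sequenced at days 30 and 90 in all 6 animals. Milk fat, which carries cytoplasm trapped by secreted fat globules, was sequenced at day 30 in M1, M2, M3 and M6 and at day 90 in all 6 animals. The study reports lower RNA integrity in macaque milk fat than in milk cells or mammary tissue. It names insufficient RNA quality as the reason why some day 30 milk was not sequenced. The part of RNA integrity in the values of milk fat was not tested. A further 6 day 90 samples carry the labels FatS10 (M1, M2, M5 and M6), FatsS10 (M4) and Skim10m (M3), and were taken as the cell-free milk that the study lists. These 34 samples had 3 technical runs each, which were averaged, so the replicate was the animal. Since a bulk sample holds all its cells together, fewer cells of a type and less RNA per cell cannot be told apart. The milk secretory genes LALBA and LGB2 had lowest values of 27654 and 35471 FPKM (fragments mapped to a transcript, divided by its length and by library size) over the 34 samples. Both were abundant in every sample type, so their presence does not check the labels. The level of LALBA did differ between biopsies and each milk type, as given below. Markers of other cell types were not analysed here, because their names could not be tied to transcripts.

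The biopsies of M1, M2 and M3 stood apart from all other samples in the casein transcripts. The shorter transcript was at 616890 FPKM in M1, 542640 in M2 and 633745 in M3, and the longer one was at 22513, 14768 and 17960 FPKM. In the biopsies of M4, M5 and M6 the shorter transcript was at 393869, 418728 and 336334 FPKM and the longer one at 64936, 68840 and 60511 FPKM. This division did not follow the day, because both kinds of value occurred at day 30 and at day 90. It also occurred among libraries of 1 name series: the first number in each library name is 2, 3 or 4, and the biopsies of M3, M4 and M5 share the number 3. LALBA and LGB2 moved with it: LALBA was between 27654 and 33064 FPKM in M1 to M3 and between 54881 and 75671 FPKM in M4 to M6, and LGB2 was between 35471 and 49399 and between 64378 and 87398 FPKM. Their part in the casein values was not tested, and comparisons with biopsies are given with all 6 biopsies and without those of M1, M2 and M3. Depth relative to the median sample ranged from 0.737 to 1.63, and coefficients of variation over technical runs reached 1.44% for the shorter transcript, 7.80% for the longer one and 1.11% for CSN3.

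The shorter CSN2 transcript was the most abundant of all transcripts in each of the 34 samples. In milk cells it had a lowest value of 272092, a median of 393004 and a highest value of 494120 FPKM (mean 379602 ± 62555 FPKM, SD, n = 12 samples of 6 animals). In milk fat it was lower, at 199149, 290338 and 363291 FPKM for the lowest, median and highest sample (287840 ± 61025 FPKM, SD, n = 10 samples of 6 animals). In cell-free milk these values were 368058, 377733 and 461314 FPKM (390272 ± 35706 FPKM, SD, n = 6). The biopsies of M1, M2 and M3 lay above every milk sample, and those of M4, M5 and M6 lay within the range of the milk samples.

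The longer CSN2 transcript held the smaller part of the CSN2 signal in every sample. Its lowest, median and highest values were 39553, 59559 and 76799 FPKM for milk cells. They were 40693, 59089 and 78709 FPKM for milk fat and 47405, 72115 and 76364 FPKM for cell-free milk. The 3 milk types overlapped. The biopsies of M1, M2 and M3 lay below every other sample, while the other 3 biopsies lay within the milk range. In the order of abundance the longer transcript stood between 2nd and 8th among all transcripts.

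CSN3 was of about the same level as the longer CSN2 transcript in milk. In biopsies it was at 103962 FPKM in M1, 124911 in M2, 112984 in M3, 57215 in M4, 63046 in M5 and 46281 in M6. The lowest, median and highest values were 37053, 58144 and 72895 FPKM for milk cells. They were 33155, 47302 and 61978 FPKM for milk fat and 50984, 54888 and 70621 FPKM for cell-free milk. The biopsies of M1 to M3 exceeded all other samples, and the milk types overlapped. CSN3 ranked between 2nd and 8th among all transcripts, and it ranked 2nd in the biopsies of M1, M2 and M3.

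**Figure D1:**
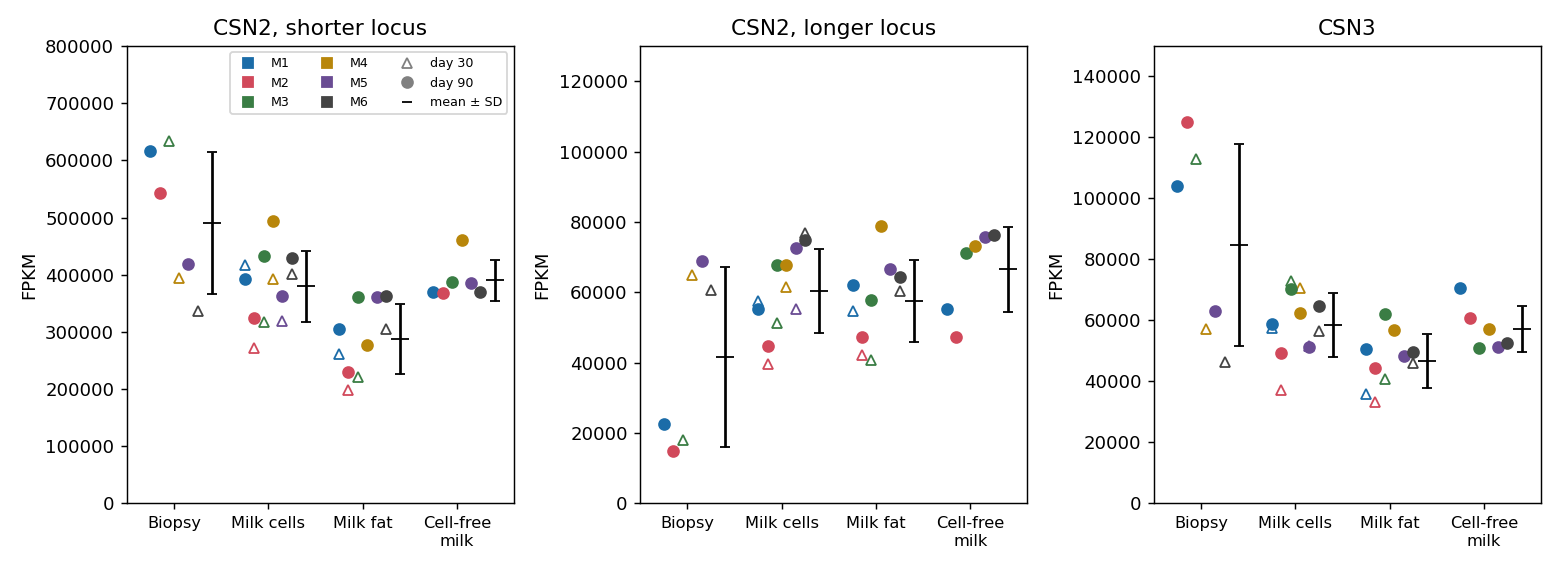
FPKM of the shorter CSN2 transcript, the longer CSN2 transcript and CSN3 (vertical axes from 0) in 34 samples of 4 types, coloured by animal, with open triangles for day 30 and filled circles for day 90, and bars for the mean ± SD of the samples. The biopsies of M1, M2 and M3 are at or above 542640 FPKM for the shorter transcript and 103962 FPKM for CSN3, and at or below 22513 FPKM for the longer transcript.

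The first comparison asked whether the level of each casein transcript differed between sample types. Libraries were put on 1 scale with median-of-ratios size factors, and limma was fitted to log2(scaled FPKM + 1) of all transcripts with a mean of at least 1 FPKM, with 6 animals against 6. Fold changes are on that log2 scale, and all p-values were adjusted over all transcripts tested. Milk fat differed from biopsies in 2 members. The shorter CSN2 transcript was lower in milk fat (log2 difference -0.94, SE 0.31, limma adjusted p = 0.0216) and lower in 5 of 6 animals. CSN3 was lower in milk fat, with a log2 difference of -0.96 (SE 0.37, limma adjusted p = 0.0436), in 4 of 6 animals. The longer CSN2 transcript had a log2 difference of 0.57 (SE 0.34, limma adjusted p = 0.177), higher in 5 of 6 animals. Of all 13413 transcripts tested, 25.0% were called lower and 29.9% higher in milk fat, and the median log2 difference of all was 0.07. With animal as a block the CSN3 call was lost (limma adjusted p = 0.0748). With a pseudocount of 0.1 both calls were lost at the same folds (limma adjusted p = 0.0831 for the shorter transcript and 0.0651 for CSN3). Both were also lost without the filter on low FPKM. The folds were unchanged there, but the SE rose to 12.8 for the shorter transcript and 2.27 for CSN3, so that fit could not decide the calls. Leaving out M1, M2 or M3 singly lost both too, with log2 differences between -0.84 and -0.73 for the shorter transcript and between -0.86 and -0.68 for CSN3.

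Without the biopsies of M1, M2 and M3, neither call remained. This fit set the milk of 6 animals against the 3 biopsies of M4, M5 and M6. The log2 difference of milk fat from biopsies was then -0.36 (SE 0.29, limma adjusted p = 0.340) for the shorter CSN2 transcript and -0.18 (SE 0.28, limma adjusted p = 0.633) for CSN3. For the longer transcript it was -0.09 (SE 0.29, limma adjusted p = 0.823). The sum of the CSN2 transcripts, fitted as 1 feature with all biopsies, gave -0.81 (SE 0.29, limma adjusted p = 0.0296), and was lower in 4 of 6 animals. Without the 3 biopsies it was -0.31 (SE 0.30, limma adjusted p = 0.413).

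Milk cells against biopsies gave 0 of 3 members called, where 21.4% of 14172 transcripts were called lower and 21.5% higher. The log2 differences were -0.63 (SE 0.34) for the shorter CSN2 transcript, 0.51 (SE 0.36) for the longer one and -0.73 (SE 0.40) for CSN3, with limma adjusted p-values of 0.150, 0.264 and 0.160. Without the 3 biopsies that stood apart they were -0.04, -0.14 and 0.05. Cell-free milk against biopsies also gave 0 of 3 members called, where 21.5% of 13700 transcripts were lower and 26.5% higher. There the log2 differences were -0.58 (SE 0.28) for the shorter CSN2 transcript, 0.65 (SE 0.32) for the longer one and -0.76 (SE 0.35) for CSN3, with limma adjusted p-values of 0.103, 0.116 and 0.0863. The longer transcript was higher in cell-free milk in 6 of 6 animals and passed with animal as a block (limma adjusted p = 0.0375). Without the 3 biopsies its difference was -0.0039, and those of the shorter transcript and CSN3 were 0.01 and 0.03.

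Between the milk types no member was called. In milk fat against milk cells, 18.1% of 13521 transcripts were called lower and 25.6% higher, and the log2 differences were -0.32 (SE 0.27) for the shorter CSN2 transcript, 0.05 (SE 0.28) for the longer one and -0.23 (SE 0.28) for CSN3. In cell-free milk against milk fat, 16.4% of 12837 transcripts were called lower and 13.3% higher, and the shorter transcript was higher in 6 of 6 animals without passing the test (log2 difference 0.37, SE 0.22, limma adjusted p = 0.214). In cell-free milk against milk cells, 2.26% of 13647 transcripts were called lower and 4.74% higher, and the members' log2 differences lay between -0.03 and 0.14. Over these 3 comparisons the limma adjusted p-values of the members were at least 0.214.

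**Figure D2:**
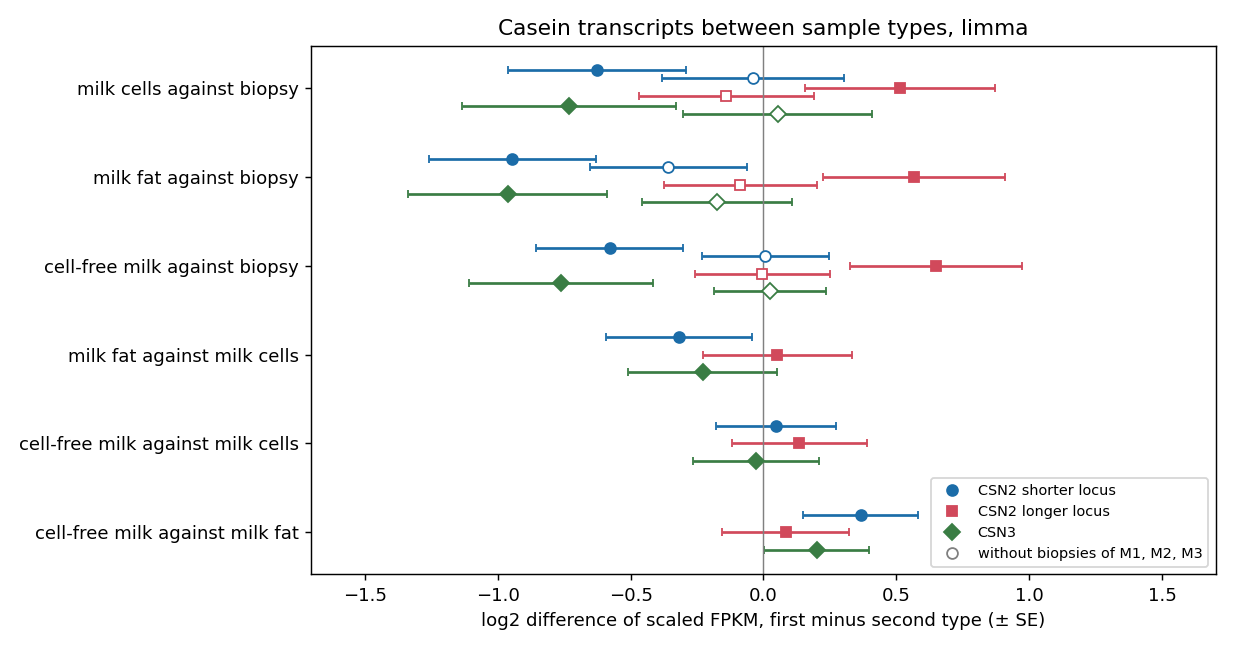
Log2 differences of scaled FPKM from limma (horizontal axis, first type minus second type, bars ± SE) for the 3 casein transcripts in the 6 comparisons of sample types, with filled symbols for all samples and open symbols without the biopsies of M1, M2 and M3. In milk fat against biopsies the shorter CSN2 transcript and CSN3 are at -0.94 and -0.96 with all biopsies and at -0.36 and -0.18 without those 3.

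The second comparison was of the part of all transcript signal that the caseins took. Such a share depends on all transcripts of a sample, so it can also fall because other transcripts rise. What part other transcripts had in the differences below was not tested. The 3 members together made up between 24.6% and 70.5% of the summed FPKM of a sample. In biopsies the share was 70.4% in M1, 65.2% in M2, 70.5% in M3, 54.9% in M4, 55.0% in M5 and 48.7% in M6. Milk cells had a lowest share of 36.4%, a median of 48.7% and a highest share of 60.6%. Milk fat had 24.6%, 33.2% and 42.4%, and cell-free milk had 42.4%, 46.1% and 54.1%. CSN2 alone accounted for between 21.6% and 60.6% and CSN3 for between 2.97% and 11.9%. Milk fat and cell-free milk did not overlap, although the highest milk fat and the lowest cell-free milk sample both rounded to 42.4%.

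With the days of an animal averaged, the order of the types was biopsy (60.8% ± 9.2, SD, n = 6), milk cells (47.3% ± 5.7, SD, n = 6), cell-free milk (47.1% ± 3.9, SD, n = 6) and milk fat (34.6% ± 5.1, SD, n = 6). Differences between types were tested within animals by exact sign-flip permutation tests, two-sided, adjusted over the 6 pairs of types. The smallest exact p that 6 animals can give is 0.03125, which becomes 0.0469 here. Milk fat had a lower share than milk cells in 6 of 6 animals (mean difference -12.7 percentage points, SD 6.2, exact adjusted p = 0.0469). The difference was smallest in M5 (-1.25 points) and largest in M4 (-19.3 points). These animals had milk fat of day 90 only, set against milk cells averaged over both days. At day 90 the shares of milk fat and milk cells were 42.0% and 47.7% in M5 and 36.0% and 60.6% in M4. With day 90 milk only the mean difference was -13.2 points, lower in 6 of 6 animals (exact adjusted p = 0.0375). Cell-free milk had a higher share than milk fat in 6 of 6 animals (difference 12.4 points, SD 4.9, exact adjusted p = 0.0469). Cell-free milk was of day 90 only, and against milk fat of day 90 alone the difference was 9.18 points, again in 6 of 6 animals (exact adjusted p = 0.0375).

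Milk fat was also below biopsies in 6 of 6 animals (difference -26.2 points, SD 12.6, exact adjusted p = 0.0469), and so was cell-free milk (-13.7 points, SD 11.5, exact adjusted p = 0.0469). For M4 and M6 the cell-free milk was within 1 point of the biopsy (-0.73 and -0.84 points). In both animals the biopsy was of day 30 and the cell-free milk of day 90, so the days were not matched. With only M4, M5 and M6 the mean differences were -14.9 points for milk fat and -3.60 points for cell-free milk, lower in 3 of 3 animals each, where the smallest exact p is 0.25. Milk cells were below biopsies in 4 of 6 animals (-13.5 points, SD 12.9, exact adjusted p = 0.15), and the mean difference in M4, M5 and M6 was -2.72 points. Milk cells, and milk fat where both days were sequenced, were averaged over days here, while each biopsy was of 1 day. The milk cells above the biopsy were those of M4 and M6 (0.41 and 3.22 points). At day 30, the day of these biopsies, milk cells were at 49.99% in M4 and 48.8% in M6. The biopsies were at 54.9% and 48.7%. Matched days were not tested. All types of an animal were in libraries of the same name series, except the biopsy of M5, so these differences are within series in the other 5 animals.

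Cell-free milk and milk cells were neighbours in the order, and no difference was detected with the days averaged (-0.24 points, SD 2.76, exact adjusted p = 0.844). Cell-free milk was sampled only at day 90, and against milk cells of day 90 alone its share was lower in 6 of 6 animals (difference -4.04 points, exact adjusted p = 0.0375).

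**Figure D3:**
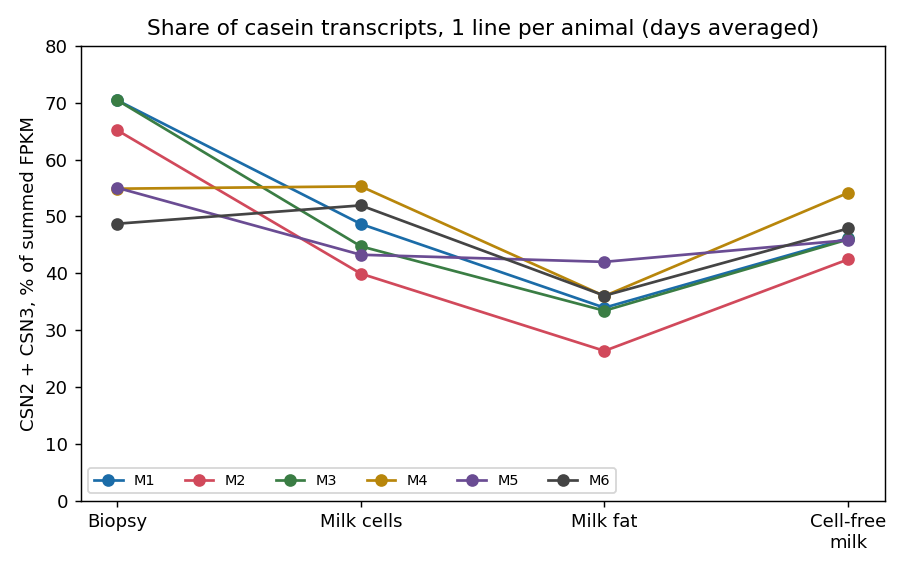
Share of CSN2 and CSN3 in the summed FPKM (vertical axis, percent, from 0) in the 4 sample types, with 1 line per animal and the days of an animal averaged. Each line has its lowest point at milk fat, where the animals range from 26.3% to 42.0%. Cell-free milk and the milk fat of M4 and M5 are of day 90 only.

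The third comparison was of the balance between the casein genes, as the ratio of CSN2 (sum of both transcripts) to CSN3, which does not depend on the scaling of a library. CSN2 exceeded CSN3 in every sample, between 4.46 and 9.34 times. In biopsies the ratio was 6.15 in M1, 4.46 in M2, 5.77 in M3, 8.02 in M4, 7.73 in M5 and 8.57 in M6. The lowest, median and highest ratios were 5.06, 7.70 and 8.99 in milk cells, 6.22, 7.26 and 8.81 in milk fat, and 6.02, 8.73 and 9.34 in cell-free milk. The types overlapped, and only the biopsy of M2 lay outside the range of the milk samples.

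None of the 6 pairs of types passed the exact sign-flip test for this ratio (adjusted p at least 0.609). The largest mean difference was that of cell-free milk from biopsies, at 0.27 on the log2 scale (SD 0.29, n = 6, exact adjusted p = 0.609), with the ratio higher in cell-free milk in 4 of 6 animals. Between milk fat and milk cells the difference was -0.03 (SD 0.19, n = 6, exact adjusted p = 0.75). Without the animals M1, M2 and M3 the differences of milk cells and milk fat from biopsies changed sign, from 0.19 and 0.15 to -0.05 and -0.08. Leaving out M2 alone brought them to 0.06 and 0.07.

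The fourth comparison was of the division of CSN2 between its overlapping transcripts. In milk the shorter transcript was between 3.51 and 7.76 times the longer one. The lowest, median and highest ratios of shorter to longer were 4.996, 6.39 and 7.29 in milk cells, 3.51, 4.97 and 6.24 in milk fat, and 4.85, 5.87 and 7.76 in cell-free milk. In biopsies the ratio was 27.4 in M1, 36.7 in M2 and 35.3 in M3, but 6.07 in M4, 6.08 in M5 and 5.56 in M6. The longer transcript thus held between 2.65% and 3.52% of CSN2 in the first 3 biopsies, and between 11.4% and 22.2% in every other sample.

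The log2 ratio of shorter to longer was lower in milk fat than in biopsies in 6 of 6 animals (difference -1.51, SD 1.31, n = 6), but did not pass after adjustment (exact p = 0.03125, adjusted p = 0.125). In M4, M5 and M6 the mean difference was -0.34. Milk fat was lower than milk cells in 5 of 6 animals (-0.37, SD 0.39, n = 6, exact p = 0.0625, adjusted p = 0.125), by the most in M4 (-0.96). The differences of milk cells and cell-free milk from biopsies were -1.14 and -1.23 with all animals (exact adjusted p = 0.141 and 0.125) and -0.01 and -0.13 in M4, M5 and M6. Cell-free milk differed from milk cells by -0.09 (SD 0.12, n = 6, exact adjusted p = 0.188) and from milk fat by 0.28 (SD 0.44, n = 6, exact adjusted p = 0.25).

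**Figure D4:**
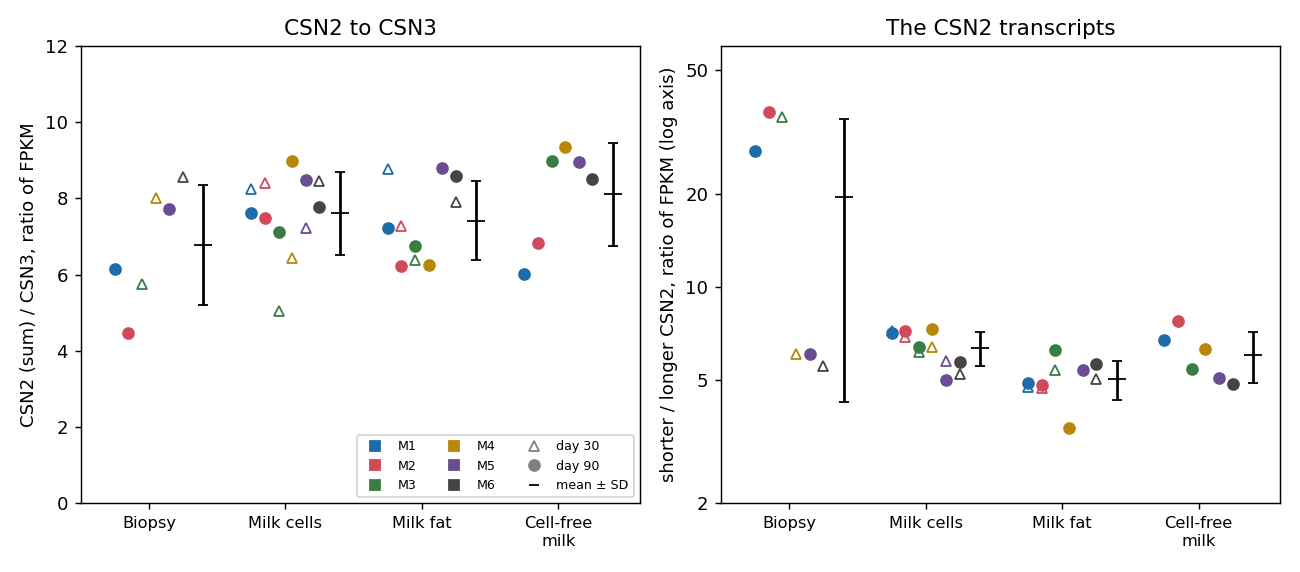
Left, ratio of CSN2 (sum) to CSN3 in FPKM (axis from 0), and right, ratio of the shorter to the longer CSN2 transcript (log axis), in 34 samples of 4 types, coloured by animal, with open triangles for day 30, filled circles for day 90 and bars for the mean ± SD. On the left all samples lie between 4.46 and 9.34 and the types overlap. On the right the biopsies of M1, M2 and M3 lie between 27.4 and 36.7 while all other samples lie between 3.51 and 7.76.

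The casein share was also compared between day 30 and day 90 of lactation. In milk cells it was 48.7%, 36.4%, 38.3%, 49.99%, 38.8% and 48.8% at day 30 in M1 to M6, and 48.6%, 43.4%, 51.2%, 60.6%, 47.7% and 55.1% at day 90. It was thus higher at day 90 in 5 of 6 animals and nearly equal in M1. The mean difference was 7.61 points (exact sign-flip p = 0.0625, adjusted over the 3 sample types p = 0.188). In milk fat the share was 30.4%, 24.6%, 25.5% and 29.7% at day 30 in M1, M2, M3 and M6, and 37.5%, 28.1%, 41.3% and 42.4% at day 90. It was higher in 4 of 4 animals by a mean of 9.81 points (exact p = 0.125, the smallest that 4 animals allow, adjusted p = 0.188). M3, M4 and M6 were biopsied at day 30, so their day 90 milk came after a biopsy. M1, M2 and M5 were biopsied at day 90, after milking. In milk fat the difference was 15.9 points in M3 and 12.6 in M6, and 7.17 in M1 and 3.56 in M2. In milk cells it was 12.9, 10.6 and 6.37 points in M3, M4 and M6, and -0.08, 7.02 and 8.90 in M1, M2 and M5. Day and earlier biopsy cannot be told apart in M3, M4 and M6. The part of the biopsy was not tested.

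The day 30 milk fat of M6 held 30.7% of its summed FPKM in loci under 200 bases, against 1.22% to 8.74% in the other samples. With such loci left out of the totals, the mean difference between days in milk fat was 6.48 points, again higher in 4 of 4 animals. Biopsies of day 30 had shares of 70.5%, 54.9% and 48.7% and those of day 90 70.4%, 65.2% and 55.0%. These came from different animals and overlapped (difference 5.54 points, exact p = 0.5, where 3 against 3 cannot go below 0.1). The difference was 0.885 points without M6 and 11.8 points without M3.

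Neither the ratio of CSN2 to CSN3 nor that of the CSN2 transcripts passed the same tests between days (adjusted p at least 0.5 and at least 0.375, exact permutation). The log2 ratio of CSN2 to CSN3 was higher at day 90 in 3 of 6 animals in milk cells and in 2 of 4 in milk fat. In milk cells its largest differences were 0.49 in M3 and 0.48 in M4.

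By limma, 0 of 3 members were called between days in milk cells, where 3.55% of 13815 transcripts were called higher and 1.59% lower at day 90. The log2 differences there were 0.26 (SE 0.30) for the shorter CSN2 transcript, 0.23 (SE 0.31) for the longer one and 0.13 (SE 0.32) for CSN3. This fit did not pair the days of an animal. With animal as a block the same differences had SE of 0.12, 0.13 and 0.12, and none passed (limma adjusted p at least 0.142). In milk fat the log2 differences without a block were 0.55 (SE 0.30), 0.54 (SE 0.26) and 0.61 (SE 0.26), with limma adjusted p-values of at least 0.930. There 0% of 12609 transcripts were called, with 661 at an unadjusted p under 0.05. With animal as a block the milk fat differences were 0.52 (SE 0.35), 0.41 (SE 0.23) and 0.58 (SE 0.23), with limma adjusted p-values of at least 0.385. In biopsies they were 0.51 (SE 0.49), -0.28 (SE 0.58) and 0.75 (SE 0.60), and 0% of 13762 transcripts were called, with 440 at an unadjusted p under 0.05.

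**Figure D5:**
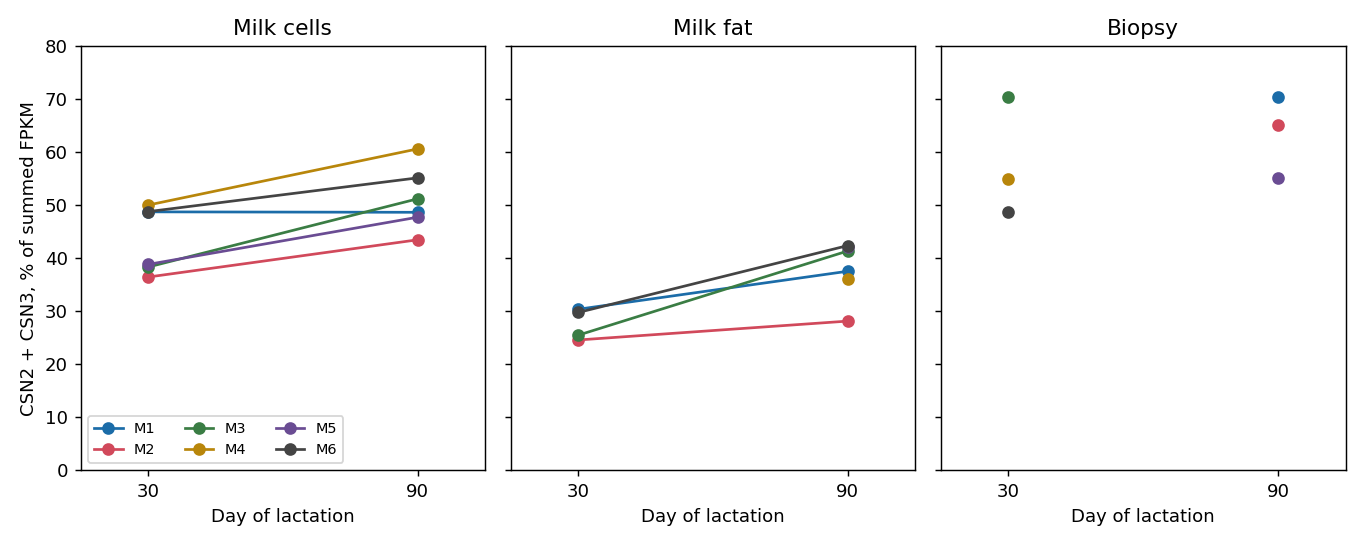
Share of CSN2 and CSN3 in the summed FPKM (vertical axis, percent, from 0) at days 30 and 90 of lactation in milk cells, milk fat and biopsies, with lines joining the samples of 1 animal. In milk cells 5 of 6 lines rise and that of M1 is level, in milk fat all 4 lines rise, and each biopsied animal has 1 day only (at day 90 the milk fat of M5, at 42.0%, lies behind that of M6).

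Animals were compared across milk types over 6 animals, with 12 relations computed in all. The casein share of milk cells, days averaged, was 48.7% in M1, 39.9% in M2, 44.7% in M3, 55.3% in M4, 43.3% in M5 and 51.9% in M6. That of cell-free milk was 46.2%, 42.4%, 46.0%, 54.1%, 45.8% and 47.9%. The animals stood in the same order in both (Spearman's rho 1, exact permutation p = 0.00278, adjusted p = 0.0333), and Pearson's r was 0.905 (exact permutation p = 0.00139, adjusted p = 0.0167). Without M2 and M4, the animals farthest from the median, r was 0.890. In cell-free milk M1, M3 and M5 lay between 45.8% and 46.2%, so their order rests on small differences. Technical runs of the shorter transcript had coefficients of variation of 0.730%, 1.44% and 0.631% there. With the milk cells of day 90 alone, the day of the cell-free milk, the order was not the same: M3 was above M1 in milk cells (51.2% and 48.6%) and M1 was slightly above M3 in cell-free milk. At that day r was 0.954 (exact permutation, adjusted p = 0.0271 over 13 relations) and rho 0.943 (exact permutation p = 0.0167, adjusted p = 0.108). Each name series holds the milk of 2 animals, too few for a correlation within it, and in each of the 3 series the same animal had the higher share in both milk types.

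The other relations did not pass. For the share, r was 0.350 between milk cells and milk fat and 0.425 between milk fat and cell-free milk (exact permutation, adjusted p = 0.598 and 0.548), and rho was 0.371 in both (adjusted p = 0.542, exact permutation). On leaving out the 2 animals farthest from the median, the first r turned to -0.432 and the second moved to 0.727. Between the days of milk cells r was 0.738 (exact permutation, adjusted p = 0.329) and rho 0.829 (exact permutation, adjusted p = 0.233), and without M2 and M4 r was 0.411. The ratio of the CSN2 transcripts had r of 0.909 between milk cells and cell-free milk (exact permutation p = 0.0208, adjusted p = 0.125) and rho of 0.886 (exact permutation, adjusted p = 0.2), and without M5 and M6 r was 0.858. For the same ratio r was -0.526 between milk cells and milk fat and -0.470 between milk fat and cell-free milk (exact permutation, adjusted p = 0.548 each). For the ratio of CSN2 to CSN3 the relations had r between -0.379 and 0.497. Relations with biopsies were not computed, since the biopsies fell into separate groups of values.

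The other milk protein transcripts were tied to names by matching their mean FPKM to those the study lists. They were LALBA (alpha-lactalbumin, the regulatory subunit of lactose synthase), LGB2 (a beta-lactoglobulin), LYZ (lysozyme), LTF (lactotransferrin, an iron-binding antimicrobial protein), GLYCAM1 (a mucin-like milk glycoprotein) and SPP1 (osteopontin). Against biopsies, LALBA was higher in milk cells, milk fat and cell-free milk, with log2 differences of 0.88, 1.05 and 0.89 (SE 0.32, 0.21 and 0.23, limma adjusted p = 0.0385, 0.00101 and 0.00613). LTF was lower in the same comparisons (log2 differences -1.40, -1.25 and -1.22, SE not over 0.28, limma adjusted p = 0.00153, 0.00189 and 0.00337). In addition GLYCAM1 was higher in milk fat (0.65, limma adjusted p = 0.00758) and LYZ in cell-free milk (0.91, limma adjusted p = 0.0204). Thus 1 of 6 was called higher and 1 lower in milk cells, 2 and 1 in milk fat, and 2 and 1 in cell-free milk, and 0 of 6 between milk types or between days. These shares of the 6 stand beside 21.5% and 21.4%, 29.9% and 25.0%, and 26.5% and 21.5% of all transcripts called higher and lower in the 3 comparisons. Without the biopsies of M1, M2 and M3 the counts were 0 and 1, 2 and 1, and 0 and 1. The summed FPKM of CSN2 and CSN3 was 11.8, 8.27 and 9.56 times that of LALBA and LGB2 in the biopsies of M1, M2 and M3, 4.33, 3.38 and 3.29 times in those of M4, M5 and M6, and between 1.46 and 5.17 times in milk. This measure was chosen after the values were seen and was not tested.

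Around the caseins, 26 other transcripts lay within 500 kb of a member, of which 8 had a mean of at least 1 FPKM and 2 were listed at 0 in all 34 samples. Together they came to 0.101% of the members' mean FPKM. The 5 with the highest means were ENSMMUT00000008429 (386 FPKM, chr5:59443527-59446571), ENSMMUT00000031083 (46.6 FPKM, chr5:58975581-58986493), ENSMMUT00000031326 (42.9 FPKM, chr5:59527364-59532020), ENSMMUT00000019968 (5.39 FPKM, chr5:58951684-58953121) and ENSMMUT00000006325 (4.87 FPKM, chr5:58851315-58934892), for which no gene names were at hand. ENSMMUT00000031083 was highest in tissue, at 245 FPKM on average in biopsies and at 7.94 FPKM in milk cells, 1.04 FPKM in milk fat and 1.28 FPKM in cell-free milk. Its log2 differences from biopsies were -5.05, -6.75 and -6.61 (limma adjusted p = 4.77e-06, 2.7e-08 and 2.79e-08), lower in 6 of 6 animals each, and it was called without the biopsies of M1, M2 and M3 too (log2 differences -5.11, -6.81 and -6.67). Against biopsies, 2 of the 8 neighbours were called higher and 2 lower in each milk type, which is near the share of all transcripts called (21.4% to 29.9% in a direction). Without the biopsies of M1, M2 and M3 the counts were again 2 and 2 in milk cells and milk fat, and 2 and 1 in cell-free milk. ENSMMUT00000008429, the closest of the 5 to CSN3, ranged from 40.3 to 1242 FPKM over all samples and had no call.

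The transcripts most like the caseins were ranked over the 34 samples by Pearson's r of log2(scaled FPKM + 1) among 13705 candidates, as a description. For the sum of CSN2 the first was ENSMMUT00000006104 (chromosome 8, mean 51.9 FPKM, r 0.901), followed by ENSMMUT00000021710 (chromosome 1, r 0.899) and ENSMMUT00000026892 (chromosome 16, r 0.897). For CSN3 they were ENSMMUT00000043479 (chromosome 13, mean 2.97 FPKM, r 0.938), ENSMMUT00000000009 (chromosome 7, r 0.909) and again ENSMMUT00000006104 (r 0.902). Without the biopsies of M1, M2 and M3, r was 0.841, 0.845 and 0.884 for those of CSN2, in the same order. For those of CSN3 it was 0.894, 0.808 and 0.787. The ranking itself was made with these biopsies included. The sum of CSN2 and CSN3 themselves had r of 0.923, and 0.885 without the biopsies of M1, M2 and M3. LALBA had r of -0.09 with the sum of CSN2 over 34 samples and 0.353 over the 31 without those biopsies. For LGB2 these were 0.340 and 0.606, for LYZ 0.093 and 0.388, and for LTF 0.620 and 0.547. For GLYCAM1 they were -0.05 and -0.08, and for SPP1 0.261 and 0.195. With CSN3 over the 31 samples, r was 0.584 for LALBA, 0.705 for LGB2, 0.519 for LYZ and 0.415 for LTF. It was 0.15 for GLYCAM1 and 0.300 for SPP1. These points share animals, name series and the scaling factor of each library, which divides all transcripts of a sample.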

How the data were processed

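RNA of 6 mammary biopsies, 12 milk cell, 10 milk fat and 6 cell-free milk samples of 6 macaques was analysed, with 3 technical runs each. The authors prepared poly(A) libraries, trimmed single reads with Scythe and Sickle, mapped them to rheMac2 with TopHat and Bowtie and ran Cufflinks for FPKM of each Ensembl transcript; the deposited FPKM were the starting values here. FPKM carry no read counts, so absolute depth is unknown and no counting interval is given; relative depth was estimated from the spacing of low values. Another 6 columns matched no sample described and were not used. The authors' own tests were made on counts, which were not analysed here.

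Runs were averaged to 34 samples. Size factors were medians of ratios over 21792 transcripts above 0 in all samples. Transcripts with a mean of at least 1 FPKM were tested with limma 3.58.1 in R 4.3.3 on log2(scaled FPKM + 1), with days of an animal averaged for sample types and Benjamini-Hochberg adjustment over all transcripts tested at a threshold of 0.05. Shares and log2 ratios were tested by exact permutation in Python 3.11.15 with numpy 2.4.6 and scipy 1.17.1. Scripts were tested on simulated data. Samples of 1 animal are paired by the labels, and deviations from group means correlated within animals by 0.162 to 0.452 on average. Medians of all transcripts' log2 differences lay between -0.04 and 0.07. Alternatives were other scalings, pseudocounts and filters, an animal block, day 90 milk alone and leaving out animals.

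The members and lists were chosen with earlier results of these data known. Named were the 3 members in every sample, 6 milk protein transcripts, the 5 most abundant transcripts within 500 kb and the 3 most alike to each gene. Casein names were tied to identifiers, and the other milk proteins to transcripts, through the study's listing. Signalling genes, cell type markers and sequences of these transcripts were not analysed here. Comparisons that hold biopsies share the same 6 biopsies.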

Additional observations from a re-analysis of the deposited data

Results flagged for a closer look

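Of 36 groups of values with 4 to 10 samples, 1 had a sample far from the others: the shorter CSN2 transcript in cell-free milk was highest in M4, at 461310 FPKM, with the next sample at 386440 FPKM. The gap was 0.803 of the range of the 6 samples, above Dixon's critical value of 0.625. Chance flags about 1 in 20 such groups. M4 also had the highest casein share among the milk cells and the cell-free milk.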

How the results depend on the processing

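Of the alternatives, leaving out the biopsies of M1, M2 and M3 (chosen after seeing the data) changed most. Members called between sample types went from 2 of 18, both in milk fat against biopsies, to 0 of 9 in the comparisons with biopsies alone. The casein share was then -14.9 points for milk fat and -3.60 points for cell-free milk against biopsies, with 3 animals, too few to pass. The log2 ratio of CSN2 to CSN3 reversed to -0.046 in milk cells and -0.076 in milk fat. The log2 differences that reversed were those of the longer CSN2 transcript (-0.14 in milk cells, -0.087 in milk fat and -0.0039 in cell-free milk), of CSN3 (0.053 in milk cells and 0.025 in cell-free milk) and of the shorter transcript (0.0072 in cell-free milk). The causes of changes under alternatives were not tested.

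By limma 0 members were called with a pseudocount of 0.1 and 0 without the filter on low FPKM, with the log2 differences of milk fat from biopsies still at -0.94 and -0.96 in both, and 1 was called with day 90 milk only. Without that filter the SE in milk fat against biopsies was 12.8 for the shorter transcript and 2.27 for CSN3, so that fit could not decide the calls. With animal as a replicate block 2 were called, the shorter transcript in milk fat (adjusted p = 0.0494) and the longer one in cell-free milk (adjusted p = 0.0375). Without pairing (no replicate block), the share of milk cells minus biopsies (-13.5 points) passed at an exact adjusted p of 0.0234, and the log2 ratio of the CSN2 transcripts passed for milk fat minus biopsies (-1.51, exact adjusted p = 0.0260) and minus milk cells (-0.37, exact adjusted p = 0.0390). With day 90 milk only, the share of cell-free milk minus milk cells was -4.04 points and passed. With the longer transcript alone as CSN2, the log2 ratio to CSN3 reversed to 0.28 for milk fat minus milk cells and to -0.12 for cell-free milk minus milk fat. The longer transcript in milk fat against milk cells reversed to -0.013 with FPKM as deposited and to -0.061 with scaling to the 75th percentile. In cell-free milk against milk cells that scaling reversed the shorter transcript to -0.10 and the longer one to -0.0094, and day 90 milk alone reversed the shorter one to -0.085 and, against milk fat, the longer one to -0.054. FPKM as deposited moved the median of all transcripts to between 0.226 and 0.272 in milk against biopsies. The sum of the CSN2 transcripts gives no count of members.

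Leaving out 1 animal left 5, for which the smallest exact p is 0.0625. Shares then ranged from -28.9 to -23.6 points for milk fat minus biopsies, from -16.3 to -11.6 for cell-free milk minus biopsies, from -15.0 to -11.4 for milk fat minus milk cells, from 11.3 to 14.2 for cell-free milk minus milk fat and from -0.80 to 0.53 for cell-free milk minus milk cells. The log2 ratio of CSN2 to CSN3 ranged from -0.071 to 0.018 for milk fat minus milk cells and from -0.00999 to 0.19 for cell-free milk minus milk cells, and from 0.057 to 0.24 and from 0.066 to 0.26 for milk cells and milk fat minus biopsies, both lowest without M2. Between days of biopsies the share difference ranged from 0.885 to 11.8 points. Members called ranged from 0 to 4 of 18, with 0 without M1, M2 or M3, 1 without M5 and 4 without M6. Log2 differences that changed sign ranged from -0.058 to 0.15 (longer transcript, milk fat against milk cells), from -0.059 to 0.11 and from -0.19 to 0.12 (shorter transcript and CSN3, cell-free milk against milk cells) and from -0.81 to 0.17 (longer transcript, days of biopsies). Between days 0 members were called in every alternative run. Of 642 alternative values over 57 results, 228 for shares, ratios, counts and the relation of milk cells with cell-free milk and 329 for single transcripts kept their direction and side of the threshold.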
